A study of Arabidopsis thaliana with 18 samples.

Results

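UDP-glycosyltransferases of the UGT family attach a sugar, usually glucose taken from UDP-glucose, to small molecules. In Arabidopsis leaves their known acceptors include plant hormones, flavonoids, hydroxycinnamic acids, lignin precursors, sterols and the thiohydroximate precursors of glucosinolates. The attached sugar makes the molecule more soluble and is known to alter its activity, storage or transport. UGT genes are named by a number, a letter and a member number, and the first number reflects protein sequence similarity. Formally that number marks a family and the letter a subfamily. Genes that share the number are called a subfamily here.

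The members described here are all genes whose symbol follows that scheme and that have a probe set assigned to them alone, which gave 47 of the 13350 genes with a named probe set. Each of the 47 had 1 such probe set, so the rule of taking the brightest one per gene had no effect. The RefSeq table lists 58 genes with such a symbol, and the other 11, which have no probe set named for them alone, were not analysed here. Subfamily 71 has 9 members, 76 has 8, 73 has 7, 84 and 85 have 5 each, 72 has 4, 74 and 78 have 3 each, and 80, 87 and 88 have 1 each. None of the 47 probe set names carries the suffix that Affymetrix gives to probe sets shared by several transcripts, but cross-hybridisation between close copies was not tested.

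Transcripts were measured with Affymetrix arrays in whole rosettes of Arabidopsis thaliana plants, wild type of accession Col-0 and aged 5 to 6 weeks, with no mutant and no treatment in any group. Rosettes were taken at 6 labelled times, 0, 4, 8, 12, 16 and 20 h, and the hour at which the light came on is not in the labels. Each sample pooled 15 rosettes. The 18 arrays form 3 courses of plants grown separately, called A, B and C after the replicate letters, with 1 array per time in each course. Values are scaled signal intensities on a linear scale, with an array median between 32.2 and 39.9.

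In course C the controls stood apart from those of A and B, with a 3'/5' ratio of the ubiquitin control of 4.98 ± 0.71 against 2.54 ± 0.26 and 2.78 ± 0.24 (SD, n = 6 arrays each). Over the UGT genes, the median deviation of course C from the time means was 0.06 on the log2 scale, against 0.04 for A and -0.09 for B. Single genes deviated by -0.65 to 0.99 in C, -0.52 to 0.39 in A and -0.66 to 0.46 in B. A median near 0 thus does not show that single genes were alike between courses. The course B arrays of 4 h and 16 h, as labelled, were more like the other courses' arrays of the time 12 h away than like those of their own time. Their mean correlations of log2 values over all probe sets were 0.963 and 0.967 with the time 12 h away, and 0.945 and 0.946 with their own time. Of the 47 UGT genes, 33 on the 4 h B array and 31 on the 16 h B array lay closer to the mean of A and C at the time 12 h away, as did 59.9% and 60.7% of all probe sets. The same count lay between 14 and 27 for the 4 h and 16 h arrays of A and C. For the 4 h array of course A the mean correlations were 0.958 with the time 12 h away and 0.957 with its own time. On the course B arrays of 8 h and 12 h, 29 and 28 UGT genes lay closer to the A and C mean of the other of these times. That was so for 59.5% and 56% of all probe sets. For the 8 h and 12 h arrays of A and C that count lay between 21 and 27. Of the leaf markers, 6 of 15 had a named probe set and none of the 6 was called by the tests over time described next, with mean signals between 1062.3 for LHCB4.3 and 5270.1 for LHCB4.1. Of the root markers 3 of 7 were measured, PYK10, EXPA7 and EXPA18, at means of 189.8, 9.54 and 21.1, and none was called. No flower or seed marker of the list had a probe set named for it alone, so these markers were not analysed here.

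The first question was which UGT transcripts changed over the day. UGT84A3, UGT85A5 and UGT80B1 were low at 0 h and high at 8 to 12 h, while UGT74D1 and UGT76C2 were high at 0 h and low at 8 to 12 h. These 5 of 47 genes (10.6%) passed limma's moderated F test over the 6 times with an adjusted p below 0.05, against 6.53% of all 22746 probe sets. Those 5 and 2 more, UGT74B1 and UGT76E11, passed a test for a 24 h cosine, so that 7 of 47 (14.9%) did, against 12.5% of all probe sets. No test of the family against the other probe sets was made, and the cosine share in particular lies near the background. The median range between the highest and the lowest time mean was 0.79 for the 47 genes and 0.64 for all probe sets on the log2 scale. Among probe sets at or above the median signal it was 0.94 for the 17 UGT genes and 0.49 for all. The F test made 0 calls among the UGT genes without course A and 3 without course C, when it called 0.756% and 1.32% of all probe sets. The cosine test called 4 UGT genes without course A, 11 without course B and 11 when only the course B arrays of 4 h and 16 h were left out. In these settings it called 3.24%, 13.3% and 17.7% of all probe sets.

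**Figure D1:**
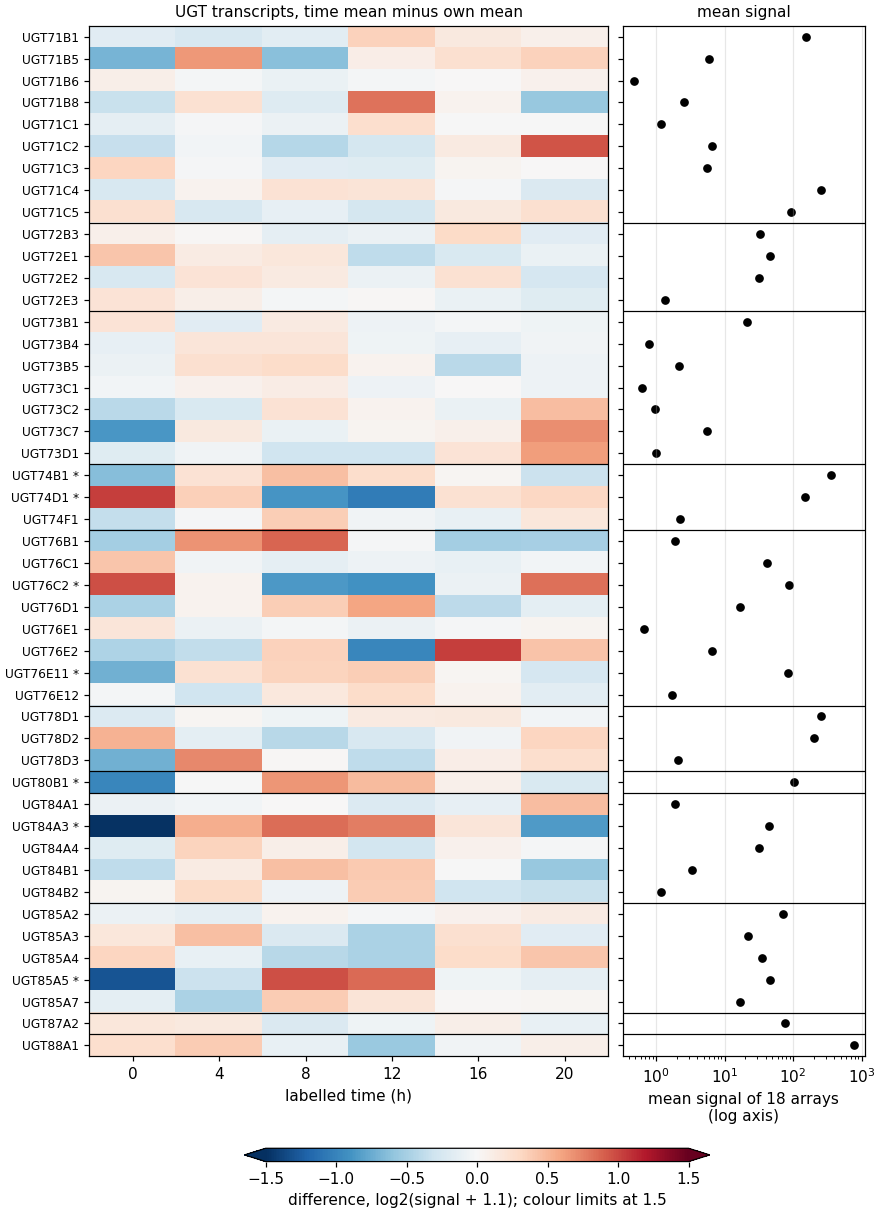
Left, the mean of 3 arrays at each labelled time minus the gene's own mean over the 6 times, on the log2(signal + 1.1) scale, for the 47 UGT genes in order of subfamily, with lines between subfamilies. Asterisks mark the 7 genes called by the F or the cosine test, and the right panel gives the mean signal of 18 arrays on a log axis, as low as 0.472 for UGT71B6 and as high as 768.3 for UGT88A1.

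All 7 had a mean signal above 37.1, the median of all probe sets, which 17 of the 47 genes exceeded. For 22 of the 47 the mean signal was below 10. No detection calls were used, so a dim UGT gene cannot be said to be expressed or not. Since the signal also depends on the probes, differences in signal between genes are not read as differences in transcript level. As the rosettes were sampled whole, fewer cells of a type and less RNA per cell cannot be told apart.

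The largest range belonged to UGT84A3 (AT4G15490), an enzyme that forms glucose esters of hydroxycinnamic acids such as sinapate. In courses A, B and C its signal was 12.4, 9.2 and 16.2 at 0 h, 87.1, 27.7 and 62.4 at 4 h, 87.3, 63.7 and 51.9 at 8 h, 96, 50.6 and 50.3 at 12 h, 31.8, 66.9 and 32.9 at 16 h, and 20.3, 18.1 and 21 at 20 h. All 3 arrays of 0 h lay below every array of the other times, and the arrays of 12 h and 0 h did not overlap. The time means ranged over 2.33 on the log2 scale (limma F test, adjusted p = 0.00321). A 24 h cosine fitted to all arrays peaked at 9.91 ± 0.61 h (SE, limma adjusted p = 0.000876). The F test's adjusted p was 0.241 without course A and 0.144 without course C.

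UGT85A5 (AT1G22370) was also low at 0 h and highest at 8 h. Its signal in A, B and C was 18.1, 12.6 and 15.2 at 0 h, 31.6, 37.1 and 24.9 at 4 h, 93.5, 50.1 and 97.1 at 8 h, 88.4, 52.7 and 75.5 at 12 h, 53.6, 18.7 and 50.1 at 16 h, and 30.4, 28.6 and 50 at 20 h. At 8 and 12 h every array lay above every array of 0 and 4 h, while the 16 h array of course B fell close to the values at 0 h. Its range was 2.26 (limma F test, adjusted p = 0.00618) and the fitted peak lay at 11.03 ± 0.68 h. The F test's adjusted p was 0.395 without course A and 0.256 without course C, and the cosine's was 0.145 without course A.

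UGT80B1 (AT1G43620) encodes a sterol glucosyltransferase known from a seed coat mutant with pale seeds. Its signal was 45.5, 45 and 55.7 at 0 h, 80.8, 99.4 and 109.5 at 4 h, 156, 117.5 and 197.2 at 8 h, 118.7, 158.1 and 128.5 at 12 h, 97, 96.2 and 111.6 at 16 h, and 71.9, 89.4 and 85.4 at 20 h in courses A, B and C. Again the 3 arrays of 0 h were the lowest of the 18, and those of 8 and 12 h the highest. The range was 1.64 (limma F test, adjusted p = 0.000318) and the fitted peak 10.66 ± 0.54 h. Its F test lost the call without course A alone among all 29 alternative settings (adjusted p = 0.109).

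UGT74D1 (AT2G31750), which glucosylates the auxin indole-3-butyric acid and also oxindole-3-acetic acid, had the opposite course. Its signal in A, B and C was 282.1, 320.6 and 210 at 0 h, 183.3, 177.4 and 139.9 at 4 h, 72.8, 77.2 and 59.4 at 8 h, 66.6, 80.6 and 44 at 12 h, 150.2, 226 and 103.6 at 16 h, and 183.4, 164.4 and 138.1 at 20 h. The arrays of 8 and 12 h all lay below every array of the other times. The range was 2.09 (limma F test, adjusted p = 0.000292), with a fitted peak at 22.75 ± 0.52 h. Its F test lost the call without course A alone among the 29 alternatives (adjusted p = 0.136).

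UGT76C2 (AT5G05860), which attaches glucose to ring nitrogens of cytokinins, had the smallest adjusted p of the family in both tests. In A, B and C its signal was 155.5, 175 and 121.8 at 0 h, 77.5, 108.2 and 57.3 at 4 h, 42.9, 35.1 and 46.8 at 8 h, 36.3, 43.5 and 40.4 at 12 h, 91.2, 59.2 and 67.4 at 16 h, and 135.4, 157.1 and 116.4 at 20 h. Every array of 0 and 20 h exceeded every array of the other times, and those of 8 and 12 h were the lowest. The range was 1.87 (limma F test, adjusted p = 8.24e-05) and the fitted peak lay at 22.28 ± 0.32 h (limma cosine test, adjusted p = 7.48e-07). The cosine call held in all 29 alternatives, with an adjusted p of at most 0.0019, while the F test gave 0.0682 without course A.

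UGT74B1 (AT1G24100) encodes the S-glucosyltransferase that makes desulfoglucosinolates in glucosinolate synthesis. Its signal was 295, 170.5 and 200.7 at 0 h, 608.7, 231.2 and 424.6 at 4 h, 493.5, 476.6 and 415.8 at 8 h, 476.5, 399 and 353.9 at 12 h, 341.7, 444.7 and 270 at 16 h, and 266.7, 246.4 and 297.6 at 20 h. The 4 h arrays of A and C were high and that of B low, while at 16 h the array of B was the highest. The fitted cosine peaked at 9.71 ± 0.90 h (limma adjusted p = 0.0192), but the F test gave an adjusted p of 0.119. With the course B arrays of 4 h and 16 h left out, the F test gave 0.00316, and the cosine's adjusted p was 0.0954 without course A and 0.0985 without course C.

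UGT76E11 (AT3G46670), a flavonoid glucosyltransferase in assays of the purified enzyme, had signals of 51.7, 48.2 and 44.5 at 0 h, 133, 84.9 and 74 at 4 h, 116.3, 140.6 and 63.2 at 8 h, 119.2, 107 and 87 at 12 h, 80.3, 122.6 and 55.6 at 16 h, and 71.5, 70.8 and 59.5 at 20 h. The 0 h arrays lay below all others, and course C was the lowest at each of the other times. The cosine peaked at 10.14 ± 0.99 h (limma adjusted p = 0.0363), and the F test gave an adjusted p of 0.144, which was 0.019 with course as a replicate block. The cosine call was lost in 12 of 29 alternatives, with an adjusted p of up to 0.29 without course A.

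**Figure D2:**
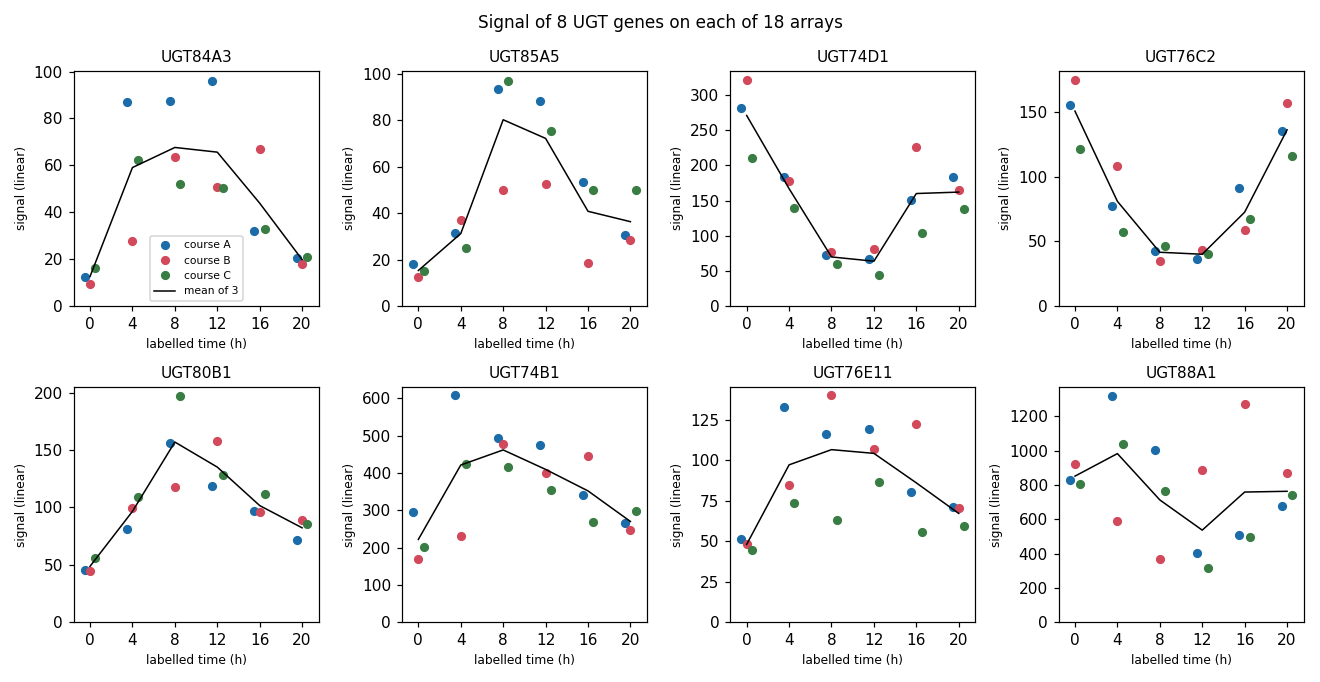
Signal on a linear scale against labelled time for the 7 genes called by the F or the cosine test and for UGT88A1, the member with the highest mean signal. Each point is 1 array, coloured by course, and the line joins the means of 3 arrays. UGT74D1 and UGT76C2 fell from means of 270.9 and 150.8 at 0 h to 63.7 and 40.1 at 12 h, and the means of the 5 other called genes were lowest at 0 h.

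Within single courses of 6 arrays, UGT74D1 and UGT76C2 had their highest signal at 0 h in A, B and C. UGT84A3, UGT85A5, UGT80B1 and UGT76E11 had their lowest at 0 h in A, B and C, and UGT74B1 in B and C, with 20 h as its lowest in A. Cosines fitted within a course peaked for UGT76C2 at 21.98, 22.83 and 21.85 h and for UGT80B1 at 10.69, 11.27 and 10.04 h in A, B and C. For UGT74B1 the fitted peaks were further apart, at 7.72, 11.99 and 8.44 h, and for UGT84A3 they were 9.10, 11.56 and 8.87 h. Course B peaked last in UGT74B1, UGT84A3, UGT76C2, UGT80B1 and UGT76E11, and first in UGT85A5 and UGT74D1. The 24 h course is single, so it cannot show that a profile repeats.

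**Figure D3:**
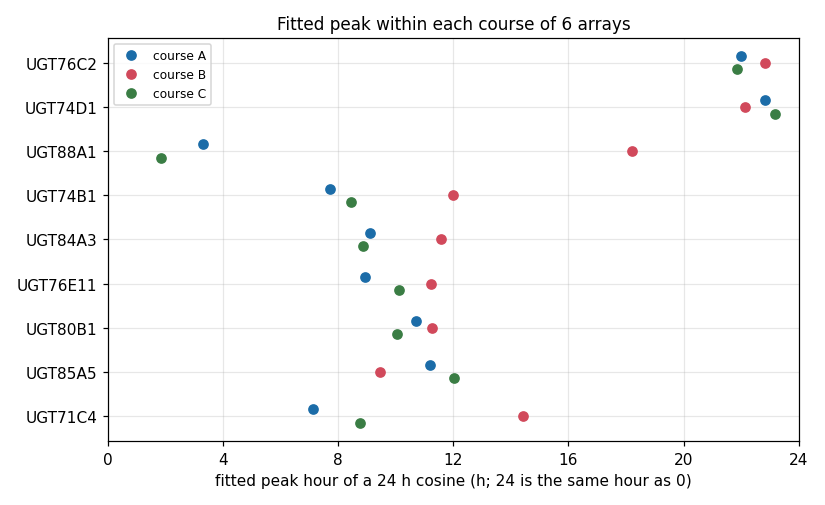
Peak hour of a 24 h cosine fitted to the 6 arrays of 1 course, for the 7 called genes and for the bright members UGT88A1 and UGT71C4, with points coloured by course. UGT76C2 and UGT74D1 peaked between 21.85 and 23.17 h in each course, whereas the course B peak of UGT88A1 lay at 18.21 h, against 3.29 h in A and 1.84 h in C.

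UGT88A1 (AT3G16520), which glucosylates the flavonol quercetin in vitro, gave no call with all arrays although its signal varied widely. Its signal in A, B and C was 831.6, 920.5 and 804.5 at 0 h, 1321.6, 588.9 and 1040.3 at 4 h, 1004.7, 369.4 and 766.7 at 8 h, 405.4, 889.8 and 316.8 at 12 h, 509.7, 1271.6 and 497 at 16 h, and 680.6, 871 and 739.9 at 20 h. Courses A and C were high at 4 h and low at 12 and 16 h, while course B was high at 12 and 16 h and low at 4 and 8 h. With all arrays the range was 0.94 (limma F test, adjusted p = 0.849). It was 1.71 without course B (adjusted p = 0.00181) and 1.27 with only its 4 h and 16 h arrays left out (adjusted p = 0.212). Why course B differed was not tested.

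The second question was how the family differed between times 12 h apart. Between 12 h and 0 h, 7 of 47 genes (14.9%) passed the limma contrast, against 10.9% of all probe sets, and they were the same 7 that the cosine test called. Higher at 12 h were 5 genes, against 5.43% of all probe sets, and lower at 12 h were 2, against 5.44%. UGT84A3 was higher by 2.25 ± 0.40 (SE, limma adjusted p = 0.00131) and UGT85A5 by 2.14 ± 0.37 (adjusted p = 0.00121). UGT80B1 was higher by 1.45 ± 0.19 (adjusted p = 9.16e-05), UGT76E11 by 1.09 ± 0.30 (adjusted p = 0.0257) and UGT74B1 by 0.91 ± 0.28 (adjusted p = 0.0467) on the log2(signal + 1.1) scale. UGT74D1 fell by 2.09 (SE 0.26, adjusted p = 5.95e-05) and UGT76C2 fell by 1.87 (SE 0.23, adjusted p = 4.76e-05).

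Each of the 7 differed in 1 direction in courses A, B and C, and the arrays of 12 h and 0 h did not overlap in any of them. That was so for 6 UGT genes higher and 7 lower at 12 h, against 14.5% and 13.5% of all probe sets. The 6 others without overlap, UGT71C4 on the higher side and UGT71C5, UGT72E1, UGT76C1, UGT85A3 and UGT85A4 on the lower, had adjusted p values between 0.12 and 0.365. The call of UGT74B1 was lost in 21 of 29 alternatives and that of UGT76E11 in 8. Without course A, UGT74D1, UGT76C2 and UGT80B1 were the 3 calls that remained, and 2.45% of all probe sets were called.

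Between 20 h and 8 h, 4 of 47 genes (8.51%) passed, against 3.26% of all probe sets, and this comparison shares no array with the previous one. UGT76C2 was higher at 20 h by 1.69 ± 0.23 (SE, limma adjusted p = 0.000478) and UGT74D1 by 1.20 ± 0.26 (adjusted p = 0.0173). UGT84A3 fell by 1.69 (SE 0.40, adjusted p = 0.0268) and UGT80B1 fell by 0.90 (SE 0.19, adjusted p = 0.0137). Each of the 4 went the same way in all 3 courses, with no overlap between the arrays of the times. In all, the arrays of 20 h and 8 h did not overlap for 3 UGT genes higher at 20 h and 5 lower, against 9.8% and 9.43% of all probe sets. The call of UGT84A3 was lost in 8 of 29 alternatives and those of UGT74D1 and UGT80B1 in 5 each. UGT85A5, UGT74B1 and UGT76E11 differed by -1.10 ± 0.37, -0.77 ± 0.28 and -0.59 ± 0.30 (limma adjusted p = 0.139, 0.174 and 0.395). For UGT85A5 the adjusted p was 0.0452 with course as a replicate block and 0.0418 with the course B arrays of 4 h and 16 h left out. UGT74B1 was also called when those arrays were left out (adjusted p = 0.03), which made 6 UGT genes and 5.64% of all probe sets. No UGT gene was called without course A, when 0.207% of all probe sets were. The 1 call without the 8 h array of course C, and likewise without the 20 h array of course A, was that of UGT76C2.

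**Figure D4:**
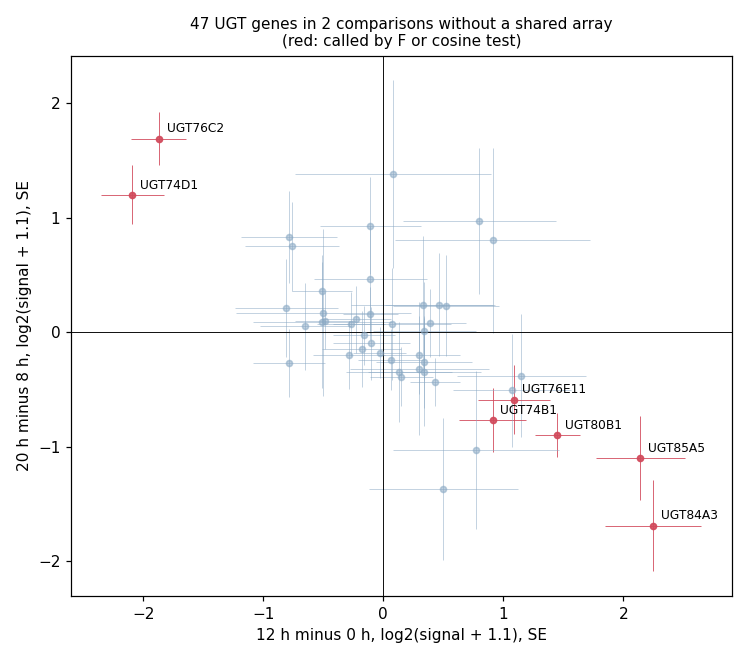
Difference between 20 h and 8 h (y axis) against that between 12 h and 0 h (x axis) on the log2(signal + 1.1) scale for 47 UGT genes, with bars for the SE of the fit. The 7 genes called by the F or the cosine test are in red. UGT74D1 and UGT76C2 lie at upper left and the 5 others at lower right, with UGT84A3 at 2.25 and -1.69.

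Between 16 h and 4 h no UGT gene and none of the 22746 probe sets passed limma's test (0% called). At an unadjusted p below 0.05 there were 1 UGT gene, UGT76E2, and 391 probe sets (1.72%). The arrays of these times did not overlap for 0 UGT genes higher at 16 h and 1 lower, UGT84B2, against 1.31% and 2.49% of all probe sets. Without course B the test called 1 UGT gene, UGT88A1, and 3.71% of all probe sets. With only the course B arrays of 4 h and 16 h left out, it called 0 UGT genes and 749 probe sets (3.29%). UGT76E2 (AT5G59590) had the largest range of the members without a call, 2.01 on the log2 scale (limma F test, adjusted p = 0.247). Its 3 signals were 7.8, 2.1 and 2.2 at 0 h, 2.6, 7.8 and 2.4 at 4 h, 10.5, 3.7 and 7.9 at 8 h, 1.5, 1.8 and 3.2 at 12 h, 9.3, 6.8 and 24.8 at 16 h, and 6.5, 4.2 and 13.9 at 20 h. The 16 h mean of 13.6 ± 9.75 rests largely on course C (SD, n = 3).

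**Figure D5:**
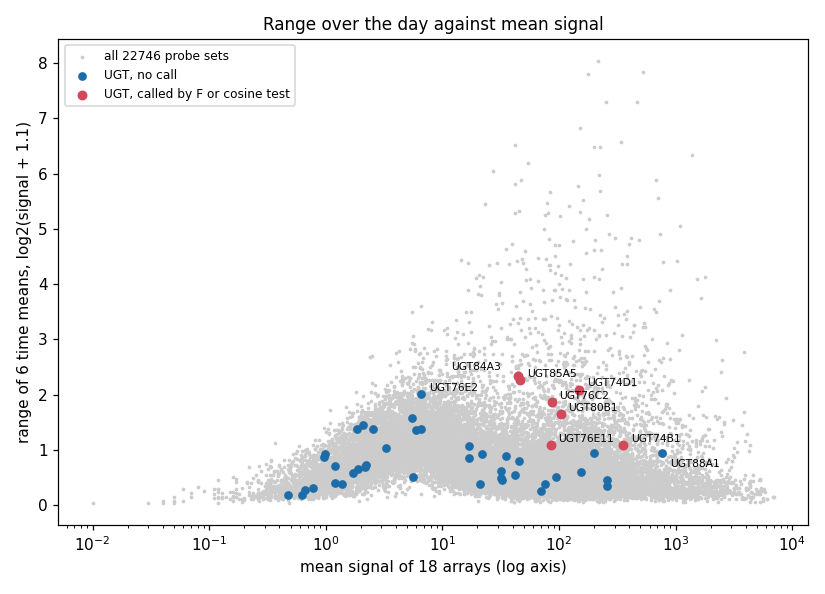
Range of the 6 time means on the log2(signal + 1.1) scale against the mean signal of 18 arrays on a log axis, for all 22746 probe sets in grey and the 47 UGT genes in colour. The 7 called genes have means between 44.8 and 356.3, while UGT76E2, with a range of 2.01 at a mean of 6.61, lies among dim probe sets with ranges as wide.

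On the log2(signal + 1.1) scale, the time of the highest mean was 0 h for 12 UGT genes and 8 h for 12, followed by 12 h and 20 h with 7 each, 4 h with 5 and 16 h with 4. Over all probe sets, 19.5% were highest at 0 h, 16.5% at 8 h and 22.3% at 4 h. The lowest mean fell at 0 h for 16 UGT genes and at 12 h for 13, while 30.5% and 21.3% of all probe sets were lowest at these times. These are the times of the means alone, and 40 of the 47 genes were called by neither the F nor the cosine test.

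By subfamily, the calls of the F or the cosine test fell in 5 of 11 subfamilies. Subfamily 74 had 2 calls among 3 members and 76 had 2 among 8. Subfamilies 80, 84 and 85 had 1 each, of 1, 5 and 5 members, and 71, 72, 73, 78, 87 and 88 had none. Called members that share a number could run in opposite directions, though these pairs carry different letters. In subfamily 74, UGT74D1 fell between 0 h and 12 h and UGT74B1 was higher at 12 h, and the third member, UGT74F1, which glucosylates salicylic acid, stayed between 1 and 5.4. In subfamily 76, UGT76C2 and UGT76E11 likewise differed in sign. UGT76B1, which glucosylates isoleucic acid and salicylic acid, had a mean of 5.37 at 8 h and 0.5 at 0 h. Its 8 h arrays were 2.1, 0.4 and 13.6 in A, B and C, so that mean rests largely on course C. In course B its signal did not exceed 0.6 at any time. The cosine test of UGT76B1 gave an adjusted p of 0.106, and 0.0371 with course as a replicate block. It was 0.0255 without course B and 0.0347 without the 8 h array of course B.

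The flavonol enzymes of subfamily 78 gave no call with all arrays. UGT78D1, a flavonol 3-O-rhamnosyltransferase, had mean signals of 223.1 at 0 h and 288.2 at 12 h, a difference of 0.34 ± 0.43 (SE, limma adjusted p = 0.756). UGT78D2, a flavonoid 3-O-glucosyltransferase, had means of 272.8 at 0 h and 155.6 at 8 h (limma F test, adjusted p = 0.647). Its cosine test gave an adjusted p of 0.147, which was 0.0446 without the 8 h array of course B and 0.0428 without the 12 h array of course A. Its 8 h arrays were 119.8 in A, 259.3 in B and 87.8 in C, and its 12 h arrays 270.8, 88.2 and 167.7, so the courses ranked these times differently. UGT78D3, a flavonol arabinosyltransferase, did not exceed 7.5 on any array.

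The monolignol enzymes UGT72E1, UGT72E2 and UGT72E3 glucosylate coniferyl and sinapyl alcohols or aldehydes, and none was called. UGT72E1 was highest at 0 h with a mean of 59.7 and lowest at 12 h with 33.6, a difference of -0.79 ± 0.30 (SE, limma adjusted p = 0.12). Its cosine test gave an adjusted p of 0.191, and 0.013 with the course B arrays of 4 h and 16 h left out. UGT72E2 stayed between 21.2 and 47.7, and UGT72E3 did not exceed 2.4.

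Subfamily 71 includes enzymes that glucosylate abscisic acid, UGT71B6 and UGT71C5 among them. UGT71B6 lay between 0.2 and 1.2 on all arrays. UGT71C5 had a mean of 108.6 at 0 h and 78 at 12 h (-0.51 ± 0.25, SE, limma adjusted p = 0.248). UGT71C4, shown in full for its high mean signal, had signals of 202.9, 219 and 219.3 at 0 h, 302, 190.8 and 313.1 at 4 h, 291.9, 249.9 and 349.1 at 8 h, 242.5, 283.1 and 351.5 at 12 h, 205.5, 318.8 and 234.1 at 16 h, and 182.3, 236.7 and 236.7 at 20 h in A, B and C. At 4 h its course B array was the lowest of the 3, and at 16 h the highest. Its cosine test gave an adjusted p of 0.0969, and 0.0143 with the course B arrays of 4 h and 16 h left out. UGT71B1 had a mean signal of 199.0 at 12 h, 129.0 at 0 h and 129.7 at 4 h (limma F test, adjusted p = 1). Its arrays of A, B and C were 111.8, 247.0 and 75.9 at 8 h and 279.4, 98.5 and 219.1 at 12 h. The courses thus ranked these times differently. Its cosine test gave an adjusted p of 0.638, and 0.0451 without course B.

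None of the 7 members of subfamily 73 had a mean signal above 21.2, that of UGT73B1, and no call was made. Among members above the median signal, narrow ranges of time means were found for UGT85A2, with time means from 61.7 to 75.8, and for UGT87A2, a gene known for an effect on flowering time, with means from 66.3 to 83.9. In limma's F test both had an adjusted p of 1. Their single arrays spread more widely, from 33.7 to 117.3 for UGT85A2 and from 48 to 104.8 for UGT87A2. At 8 h the arrays of A, B and C were 117.3, 72.4 and 36.8 for UGT85A2. Those of UGT87A2 were 50.5, 96.8 and 51.7, so the narrow ranges are those of the means alone. UGT78D1, also above the median signal, had a range of 0.35.

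Many UGT genes lie next to each other in the RefSeq gene order, and 24 of the 47 fall in 10 runs of directly neighbouring members. UGT85A5 stands between UGT85A2 and UGT85A3, whose ranges were 0.25 and 0.92 beside its own 2.26, and UGT85A7 at the end of that run had 0.85. UGT84A3 stands between UGT84A1 and UGT84A4, both hydroxycinnamate glucosyltransferases too, with ranges of 0.66 and 0.61 beside its 2.33. UGT84A1 was dim, with a mean of 1.88. UGT84A4 had a mean of 31.7, and its 12 h and 0 h means differed by -0.10 ± 0.32 (SE, limma adjusted p = 0.922). UGT76C2 neighbours UGT76C1, the other cytokinin N-glucosyltransferase, whose range was 0.55. The signal of UGT76C1 was 61.5, 58 and 47.2 at 0 h and 36.8, 42.4 and 38 at 12 h, a difference of -0.49 ± 0.25 (adjusted p = 0.261). Differences in course between neighbours were not tested.

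Among the other genes of the same metabolism, 4 more UGT genes carry another symbol in the tables, UF3GT, GT72B1, SGT and AT5G54010, and none was called by the F or the cosine test. SGT, the other sterol glucosyltransferase, had time means between 86.2 and 104.9, a range of 0.32, beside the range of 1.64 of UGT80B1. UF3GT, which adds xylose to anthocyanins, had means of 55.2 at 0 h and 114.8 at 12 h (0.83 ± 0.48, SE, limma adjusted p = 0.344). Of the phenylpropanoid list 2 of 20 symbols were measured, and HCT, the hydroxycinnamoyl transferase that leads to lignin, was called. Its mean was 920.4 ± 133.1 at 0 h and 510.5 ± 27.3 at 12 h (SD, n = 3), and it fell by 0.84 (SE 0.18, limma adjusted p = 0.00556). ALDH2C4, the other, had an adjusted p of 0.0827 in that contrast.

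Of the glucosinolate list 2 of 23 symbols were measured. BCAT4, an aminotransferase at the start of methionine-derived glucosinolate synthesis, passed the cosine test with a fitted peak at 9.59 h (limma adjusted p = 0.0183), beside 9.71 h for UGT74B1. Its mean was 398.6 ± 110.2 at 0 h and 1307.0 ± 251.5 at 8 h (SD, n = 3), and its F test gave an adjusted p of 0.196. The limma contrasts of BCAT4 gave adjusted p values of 0.0717 for 12 h against 0 h and 0.173 for 20 h against 8 h. CYP79A2, the other measured gene of this list, had a mean signal of 0.778 and no call. Whether UGT74B1 and this pathway share a timing was not tested. No call was made for the 3 measured of 26 flavonoid symbols, DFR, BAN and CHI, of which CHI is in the RefSeq table a chitinase (AT2G43570) and not chalcone isomerase. Likewise none was made for the 6 of 31 in the hormone list or for USP, the 1 of 25 in the UDP-sugar list. No gene of the salicylate list had a probe set named for it alone, and that list was not analysed here.

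For the 3 called members with the largest range, the most similar courses among 5988 single-gene probe sets of at least median signal were found by Pearson's r over the 6 time means. They are a description, since 6 points shared by all genes allow many values close to 1. UGT84A3 was most like AT3G52040 (r = 0.9994), AT1G21590 (0.9964) and AT4G31210 (0.9955). UGT85A5 was most like AT3G47160 (r = 0.9993), AT5G35735 (0.9989) and AT4G27620 (0.9968). UGT74D1 was most like AT5G32450 (r = 0.9964), AT2G31110 (0.9952) and AT1G62480 (0.9932). The first 6 were highest at 8 h and the last 3 at 0 h, and AT3G52040 and AT5G32450 were not called by the F test (limma adjusted p = 0.0779 and 0.275).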

How the data were processed

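The authors deposited 1 signal intensity, on a linear scale, for each probe set of each array. Per the submitters' processing notes the tool was MAS5, and no version is given in the sources used here. Each array had a mean near 100 after trimming 2% at each end. Groups and courses were taken from the sample titles. After leaving out 64 control probe sets, log2(value + 1.1) was fitted for 22746 probe sets, 1.1 being the 10th percentile of all values. Array medians spanned 0.3 on the log2 scale, below the limit of 0.5 for quantile normalization. The fit used limma 3.58.1 in R 4.3.3 with 18 arrays, 12 residual degrees of freedom for the time means, eBayes (trend on mean intensity) and p-values adjusted by Benjamini-Hochberg over all of them, and calls had an adjusted p below 0.05. Of these probe sets, 13513 had 1 gene, 503 had several and 8730 are unnamed here. Entrez IDs found 13436 of the first in RefSeq's TAIR10.1 gene table, from which current symbols were taken. The files name no build, so no coordinates are given. The tests were checked on simulated data with independent noise on each array. That check could not cover the correlation within courses given below.

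Every UGT member could be named, and members called by the F or the cosine test, the 3 with the highest mean signal and the uncalled one with the largest range were described in full. The members and lists were chosen with earlier results of these data known. The courses were grown separately, per the design text, so the letter pairs arrays across times. The mean correlation of deviations from the time means was 0.174, 0.161 and 0.328 within courses A, B and C. The lowest within a course was -0.277, in B. Between arrays of different courses and times the mean was -0.109. As the deviations of the 3 courses sum to 0 at each time, that value is tied to those within courses. The p-values rest on 3 arrays per time.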

Additional observations from a re-analysis of the deposited data

How the results depend on the processing

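The 29 alternatives were 2 normalizations, 2 offsets, the filter on dim probe sets, eBayes without a trend, course as a replicate block, omission of the 4 h and 16 h arrays of course B, and leaving out each course and each array. A second probe set per gene could not be tried, since every UGT gene has 1. Leaving out a course or an array, the number of UGT genes called ranged from 0 to 6 in the F test, 4 to 11 for the cosine, 3 to 8 between 12 h and 0 h, 0 to 5 between 20 h and 8 h, and 0 to 1 between 16 h and 4 h. Over all probe sets the share called ranged from 0.756% to 9.18%, 3.24% to 15.3%, 2.45% to 12%, 0.207% to 4.24% and 0% to 3.71% in the same tests. With the replicate block the numbers were 6, 8, 7, 5 and 0, against 5, 7, 7, 4 and 0 with all arrays and no block, and the block changed no calls among the UGT genes beyond those of UGT76E11, UGT76B1 and UGT85A5 given above. The block raised the share called over all probe sets to 11.3%, 18.4%, 17.1% and 6.86% in the first 4 tests. With the 4 h and 16 h arrays of course B omitted, the cosine test called 11, the 4 added being UGT71C4, UGT72E1, UGT85A4 and UGT88A1. Without dim probe sets, a filter that 22 of the 47 genes passed, each test called the same genes as without it, and called 12.2%, 23%, 20.6% and 7.12% of the 13648 probe sets kept. The 1 call between 16 h and 4 h, without course B, was that of UGT88A1. For the 10 genes described in full, 815 of 897 values under alternatives stayed on the same side of the threshold. Of the others, 72 lost a call and 10 gained one. The called differences between 12 h and 0 h and between 20 h and 8 h kept their sign in every alternative. Ranges and the sizes of fitted cosines are never negative, so no change of sign could be seen in them. The 3 arrays per time and the lack of detection calls limit what can be said of the 22 genes with a mean signal below 10.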
